A study of Homo sapiens with 6 samples.

Results

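The genes described here are 8 members of the protein disulfide isomerase (PDI) family of the endoplasmic reticulum (ER) and the 2 ERO1 oxidases that recharge them. They were taken by symbol from the deposited count table, P4HB, PDIA3, PDIA4, PDIA5, PDIA6, TXNDC5, ERP44, ERP29, ERO1A and ERO1B, which makes 10 of its 64299 genes. All 10 passed the filter on low counts and are among the 16243 genes tested. RNA came from HEK293T, a transformed human embryonic kidney line (the series text writes HEK293), in 6 poly(A) libraries: 3 from cells given a plasmid labelled ERbeta and 3 from cells given the empty vector, EV_Ctrl. All wells received 1 µg of plasmid with the lipid reagent FuGene 6, so the controls were transfected too. The labels do not define ERbeta. The series title concerns amyloid-forming proteins in the ER, and from background knowledge of the study the protein is taken as an artificial β-sheet protein sent to the ER, not as estrogen receptor beta. Its own level was not analysed here. Expression was transient, and the share of cells that took up plasmid is not given in the labels.

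Total counts ran from 13149304 to 16531368 in ERbeta and from 6833442 to 27101644 in EV_Ctrl. The 5 markers fixed for the line (VIM, PAX2, LIN28B, CDH2 and NEFM) summed to 1132 to 1253 CPM in ERbeta and 1171 to 1227 CPM in EV_Ctrl, where CPM is counts per 1e6 counts of the library. VIM made up most of this sum, at 827 to 957 CPM, so the sum says little of the others. LIN28B ran from 40.5 CPM (EV_Ctrl 1) to 123 CPM (ERbeta 3). PAX2 ran from 3.65 CPM (ERbeta 3) to 12.1 CPM (EV_Ctrl 3). Of 10 markers of other cell types, CD3E, HBB and KRT5 had 0 reads. The whole set summed to 13.5 to 22.9 CPM in ERbeta and 19.4 to 33.2 CPM in EV_Ctrl, nearly all of it from COL1A1. On the first principal component of log2 CPM, EV_Ctrl 1 and 3 stood apart at 44.7 and 41.5. EV_Ctrl 2 was at -13.9 there, beside ERbeta 1 and 2 at -16.3 and -13.9, with ERbeta 3 at -42.1. The deviation of each library's log2 CPM from the gene means also followed GC content differently, with a correlation across genes of 0.53 in EV_Ctrl 1 and 0.46 in EV_Ctrl 3, against -0.20 in EV_Ctrl 2 and -0.65 to -0.06 in ERbeta. Genes are not independent replicates, so these are descriptions. For the 10 genes, results that rest on these libraries are given with and without them, and with a correction for GC content.

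Disulfide bonds are formed in the ER by a relay. PDI family enzymes with a thioredoxin fold pass disulfides to folding proteins and reshuffle wrong ones, and the flavin enzymes ERO1A and ERO1B reoxidise them, with oxygen as the acceptor and hydrogen peroxide as the by-product. Several of these genes are known targets of the unfolded protein response, whose factors ATF6 and XBP1 act through the ER stress element, ERSE, CCAAT and CCACG separated by 9 bases. ERO1A is also known as a gene raised by low oxygen.

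The promoter windows below are shown because the ERSE could be looked for in them beside the expression values. RefSeq windows (build GRCh38.p14, 250 bases before to 50 bases after an annotated start) were found for 9 of the 10 genes, 12 windows in all. PDIA3 had no entry. A complete ERSE on either strand stood in 2 of these windows, 1 of ERO1B and 1 of PDIA6, whereas it stood in 27 of all 35116 windows of that length, or 0.0769%. The windows of PDIA4 and ERO1A without a complete ERSE are printed for comparison: PDIA4 is a classical stress-induced PDI and ERO1A is the paralog of ERO1B. Sequences read 5′ to 3′ on the strand of the gene. Capitals mark a complete ERSE and every CCACG, which reads CGTGG where it lies on the opposite strand. The windows are chr1:236281909-236282208 for ERO1B, chr2:10812736-10813035 for PDIA6, chr7:149028441-149028740 for PDIA4 and chr14:52695509-52695808 for ERO1A, all on the minus strand.
ERO1B: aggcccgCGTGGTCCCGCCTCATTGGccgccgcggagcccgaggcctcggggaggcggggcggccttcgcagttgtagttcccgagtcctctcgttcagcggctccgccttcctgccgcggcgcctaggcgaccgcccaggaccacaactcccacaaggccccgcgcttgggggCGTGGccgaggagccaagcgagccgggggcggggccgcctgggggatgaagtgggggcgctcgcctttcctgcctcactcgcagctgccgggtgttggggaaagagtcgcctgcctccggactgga
PDIA6: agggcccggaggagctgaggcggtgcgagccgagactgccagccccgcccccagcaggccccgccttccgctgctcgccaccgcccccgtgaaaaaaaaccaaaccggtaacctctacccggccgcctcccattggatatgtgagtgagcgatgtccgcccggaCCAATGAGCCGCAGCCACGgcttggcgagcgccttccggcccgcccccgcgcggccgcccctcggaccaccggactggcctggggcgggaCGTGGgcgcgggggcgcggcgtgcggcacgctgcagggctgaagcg
PDIA4: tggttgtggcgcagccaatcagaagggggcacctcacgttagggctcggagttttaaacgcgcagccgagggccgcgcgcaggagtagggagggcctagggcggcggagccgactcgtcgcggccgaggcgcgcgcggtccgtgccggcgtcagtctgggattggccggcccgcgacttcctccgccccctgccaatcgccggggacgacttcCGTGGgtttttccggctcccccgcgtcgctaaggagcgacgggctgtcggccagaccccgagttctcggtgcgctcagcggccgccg
ERO1A: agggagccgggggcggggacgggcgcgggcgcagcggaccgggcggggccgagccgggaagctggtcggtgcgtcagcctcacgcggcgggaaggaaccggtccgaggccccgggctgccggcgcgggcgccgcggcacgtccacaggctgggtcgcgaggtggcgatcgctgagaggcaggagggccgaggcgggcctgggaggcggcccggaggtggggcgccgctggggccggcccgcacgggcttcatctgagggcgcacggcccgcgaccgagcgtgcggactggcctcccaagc

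In ERO1B the ERSE lies on the opposite strand, from 243 to 225 bases before the start. In PDIA6 it lies on the strand of the gene, from 86 to 68 bases before the start. The PDIA4 window holds 3 CCAAT and 1 CCACG, with no pair at the spacing of the element, and the ERO1A window holds 0 CCAAT and 0 CCACG. Of all windows, 34.6% hold CCAAT and 38.1% hold CCACG, so either motif alone is common. TGACGTG, the core of the element bound by XBP1, stood in 1 member window, that of a second TXNDC5 start (1.97% of all windows), where it overlaps CCACG read on the opposite strand. ACGTG and GCGTG, the forms of the core bound by hypoxia factors, were counted on both strands. The ERO1A window held 1 and 2 matches, as did the printed window of PDIA6. That of ERO1B held 0 and 2, that of PDIA4 1 and 0, that of PDIA5 3 and 1, and that of ERP29 7 and 2. These motifs stood in 21.4% and 36.5% of all windows. ACGTG is also contained in TGACGTG. A match is a string of letters, and binding was not measured.

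In both groups the main PDI genes made up most of the family's RNA. Per kilobase of annotated exon, P4HB, which encodes the classical PDI, was highest at 142 ± 0.862 CPM per kb in ERbeta and 130 ± 3.68 CPM per kb in EV_Ctrl (SD, n = 3 each). In EV_Ctrl there followed PDIA6 at 93.8 ± 4.40, PDIA4 at 87.8 ± 4.27 and PDIA3, the partner of calnexin and calreticulin, at 70.1 ± 2.77 CPM per kb. The ranges of PDIA6 (88.8 to 96.9) and PDIA4 (83.3 to 91.8) overlapped in EV_Ctrl, and they overlapped in ERbeta as well (105 to 113 and 108 to 124), so these neighbours were not separated. Lower came ERP29, a non-catalytic member, at 33.0 ± 1.77, and ERP44, which returns ERO1 oxidases and unassembled clients from the early secretory pathway, at 12.6 ± 3.18 CPM per kb in EV_Ctrl. ERO1B at 9.64 ± 1.53 and ERO1A at 9.57 ± 1.51 CPM per kb were level in EV_Ctrl and overlapped ERP44 (10.4 to 16.3 CPM per kb). PDIA5 was at 3.37 ± 0.127 and TXNDC5 at 2.90 ± 0.143 CPM per kb. The 8 PDI genes summed to 2113 ± 43.1 CPM in ERbeta and 1849 ± 42.5 CPM in EV_Ctrl, and the 2 oxidases to 168 ± 26.5 and 124 ± 16.4 CPM. P4HB, PDIA3, PDIA4 and PDIA6 together took 82.2% to 85.5% of the summed CPM of the 10 genes in each library.

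**Figure D1:**
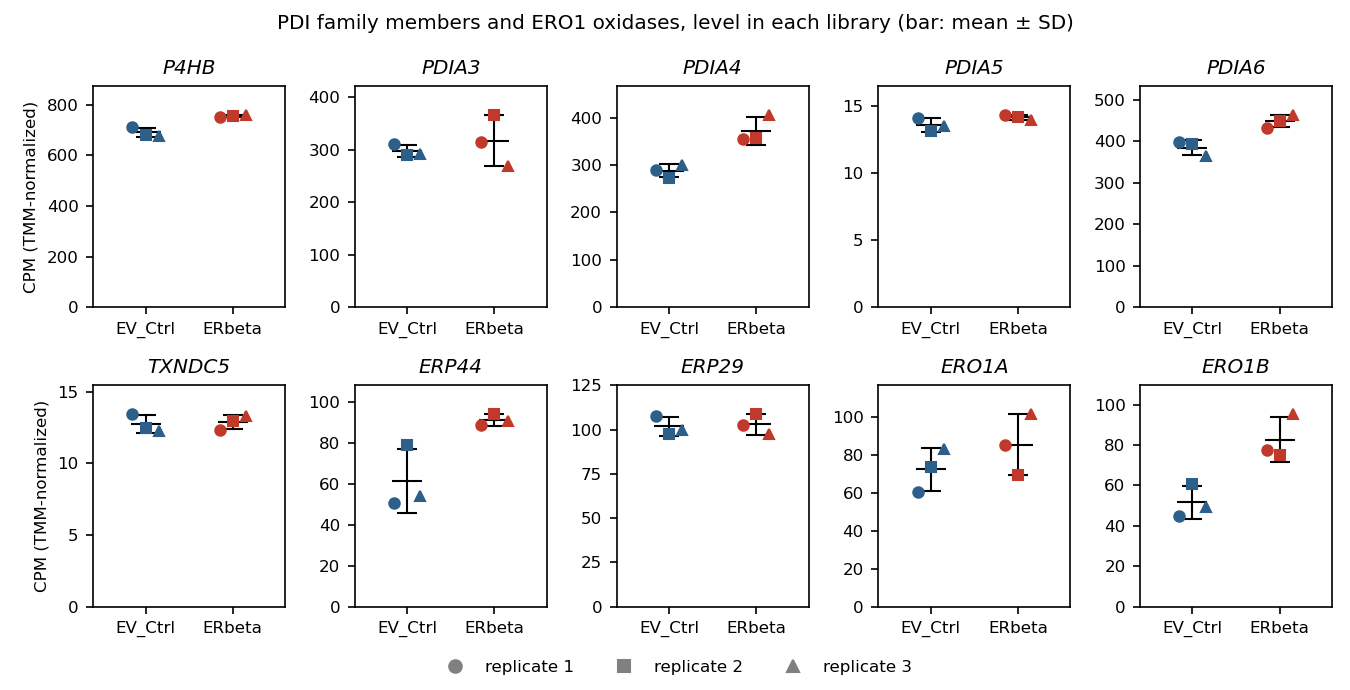
Level of each of the 10 genes in each library as TMM-normalized CPM, with EV_Ctrl in blue, ERbeta in red, a marker shape for the replicate number and bars for mean ± SD (n = 3 each). The groups are separate for P4HB, PDIA4, PDIA6, ERP44 and ERO1B and overlap for the other 5 genes.

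The comparison of ERbeta with EV_Ctrl sets cells given the ERbeta plasmid beside cells given the empty vector. No library expresses another protein from the plasmid. A response to this protein and a response to any expressed protein therefore cannot be told apart. The fitted log2 fold change was above 0 for all 10 genes with TMM scaling (48.3% of tested genes), and below 0 for PDIA3, PDIA5, TXNDC5 and ERP29 when only library size was used. It ran from 0.02 for ERP29 to 0.67 for ERO1B. The median of the 10 was 0.18, beside -0.01 over all tested genes, and with library size only it was 0.08 beside -0.10. With p-values from edgeR's quasi-likelihood fit, adjusted over all tested genes by the Benjamini-Hochberg method, 0 of the 10 genes passed 0.05, as did 0% of all tested genes. At an unadjusted p under 0.05, 4 of the 10 were higher (ERO1B, PDIA4, ERP44 and PDIA6) and 0 lower, where 9.54% of tested genes were higher and 2.88% lower. For 5 of the 10 genes the lowest ERbeta value exceeded the highest EV_Ctrl value, and for 0 it was the reverse, against 10.2% of tested genes higher and 8.48% lower. DESeq2's Wald test on the same counts called 0 of the 10, with 0.431% of genes called higher. At an unadjusted p under 0.05 it had 3 of the 10 higher (PDIA4, ERP44 and ERO1B), against 10.6% of genes. With GC correction 9 of the 10 were above 0 (59.7% of genes), 0 passed (0.137% of genes), and 3, P4HB, PDIA4 and PDIA6, were higher at an unadjusted p under 0.05 (8.33% of genes). In bulk RNA a change in the number of responding cells and a change in RNA per cell cannot be told apart. No label ties the replicates to separate cultures, so the p-values cover only the variation among these libraries, part or all of which may be technical.

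PDIA4, a PDI with 3 thioredoxin-like catalytic domains and a stress-induced member, had the largest log2 fold change of the 4 abundant PDI genes. It was at 354, 357 and 406 CPM in ERbeta 1, 2 and 3 and at 289, 273 and 301 CPM in EV_Ctrl 1, 2 and 3. ERbeta 3 was the highest library, and the lowest ERbeta library stood above the highest control. The log2 fold change was 0.37 ± 0.10 (SE), with an unadjusted p of 0.006 and an adjusted p of 0.397 in edgeR. It was 0.34 without EV_Ctrl 2, 0.45 without EV_Ctrl 1 and 3, and 0.53 once GC content was corrected for (adjusted p 0.188). With GC correction and without EV_Ctrl 2 together it was 0.57 and passed in edgeR (adjusted p 0.00913). In that fit 1474 of 16104 genes were called higher.

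P4HB encodes the PDI that is also a subunit of collagen prolyl 4-hydroxylase and of the microsomal triglyceride transfer protein. Its CPM was 751, 754 and 760 in ERbeta and 713, 682 and 676 in EV_Ctrl. The ERbeta libraries were nearly alike and all above the controls, by a small amount. The log2 fold change was 0.13 ± 0.08, with an adjusted p of 0.502 in edgeR, and 0.32 with GC correction (adjusted p 0.43). It was 0.13 without EV_Ctrl 2 and 0.15 without EV_Ctrl 1 and 3. PDIA6, a PDI known to bind the sensor IRE1 and to work with the chaperone BiP, was at 432, 450 and 463 CPM in ERbeta and 397, 393 and 364 CPM in EV_Ctrl. Again the groups were separate, with a log2 fold change of 0.22 ± 0.09 (adjusted p 0.397 in edgeR), and 0.25 with GC correction. For PDIA6 it was 0.24 without EV_Ctrl 2 (unadjusted p 0.0545 in edgeR) and 0.195 without EV_Ctrl 1 and 3.

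PDIA3, the glycoprotein-specific PDI, did not separate the groups. It was at 315, 366 and 270 CPM in ERbeta and at 311, 289 and 292 CPM in EV_Ctrl, so that the ERbeta libraries lay on both sides of the controls. Its log2 fold change was 0.09 ± 0.13, and -0.01 without ERbeta 2, the highest library. It was 0.05 with GC correction, 0.08 without EV_Ctrl 2 and 0.14 without EV_Ctrl 1 and 3. ERP29 was at 103, 109 and 97.2 CPM in ERbeta and at 108, 97.6 and 99.7 CPM in EV_Ctrl, a log2 fold change of 0.02 ± 0.10. The value for ERP29 was 0.13 with GC correction, -0.0046 without EV_Ctrl 2 and 0.08 without EV_Ctrl 1 and 3. PDIA5 was at 14.3, 14.1 and 13.96 against 14.1, 13.1 and 13.5 CPM, a log2 fold change of 0.06 ± 0.11. The value for PDIA5 was 0.19 with GC correction, 0.04 without EV_Ctrl 2 and 0.11 without EV_Ctrl 1 and 3. The last gene rests on 102 to 348 reads per library.

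TXNDC5, also known as ERp46, was at 12.4, 12.96 and 13.3 CPM in ERbeta and 13.4, 12.4 and 12.3 CPM in EV_Ctrl. The groups overlapped, with a log2 fold change of 0.02 ± 0.12 from 97 to 330 reads per library. For TXNDC5 it was 0.15 with GC correction, 0.01 without EV_Ctrl 2 and 0.05 without EV_Ctrl 1 and 3. Its level is uncertain: in GENCODE 29, 60.6% of its exon bases also belong to the readthrough gene BLOC1S5-TXNDC5 on the same strand, and that gene has 3 reads over all 6 libraries. How the authors' counting treated reads that fit both genes is not given in the sources used here. Other members share exon bases with genes on the opposite strand, the most being PDIA6 with ATP6V1C2 (25.2%) and ERP29 with an antisense gene (17.5%). PDIA5 shares 12.2% with SEC22A on its own strand. PDIA3 has a processed copy, PDIA3P1, with 994 reads over the 6 libraries, so its counts may be split as well.

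ERP44 differed more, and whether it passed depended on 1 control library. It was at 88.4, 93.9 and 90.7 CPM in ERbeta, at 50.6 and 54.2 CPM in EV_Ctrl 1 and 3, and at 78.9 CPM in EV_Ctrl 2. The groups were separate, but EV_Ctrl 2 stood nearer to the ERbeta libraries than to the other controls. The log2 fold change was 0.57 ± 0.17 (adjusted p 0.397 in edgeR). It was 0.80 without EV_Ctrl 2, where it passed (adjusted p 0.000983, with 13.5% of genes called higher), and 0.21 without EV_Ctrl 1 and 3. With GC correction it was also 0.21 (adjusted p 0.506). The longest ERP44 transcript has 38.9% GC, below the median of 48.5% over tested genes.

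ERO1B had the largest log2 fold change of the 10 genes with all 6 libraries. It was at 77.3, 75.2 and 95.3 CPM in ERbeta and at 44.8, 60.7 and 49.5 CPM in EV_Ctrl. Every ERbeta library was above every control, ERbeta 3 was the highest, and EV_Ctrl 2 was the highest control. The log2 fold change was 0.67 ± 0.15, with an unadjusted p of 0.00265 and an adjusted p of 0.397 in edgeR. It was 0.81 without EV_Ctrl 2 (adjusted p 0.00267, passing), 0.45 without EV_Ctrl 1 and 3, and 0.17 once GC content was corrected for (adjusted p 0.548). ERO1B has the lowest GC content of the 10 genes, 37.0%. This is 1 of the genes with a complete ERSE in the window printed above, and PDIA6, the other, had a log2 fold change of 0.22.

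ERO1A, the more widely expressed oxidase, was at 84.98, 69.3 and 101 CPM in ERbeta and at 60.3, 73.6 and 82.9 CPM in EV_Ctrl. The groups overlapped, since ERbeta 2 lay below EV_Ctrl 2 and 3. The log2 fold change was 0.24 ± 0.17 (adjusted p 0.556 in edgeR) and turned to -0.19 with GC correction (adjusted p 0.666). It was 0.09 without ERbeta 3, 0.12 without EV_Ctrl 1 and 0.37 without ERbeta 2. Without EV_Ctrl 2 it was 0.25, and without EV_Ctrl 1 and 3 it was 0.21.

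**Figure D2:**
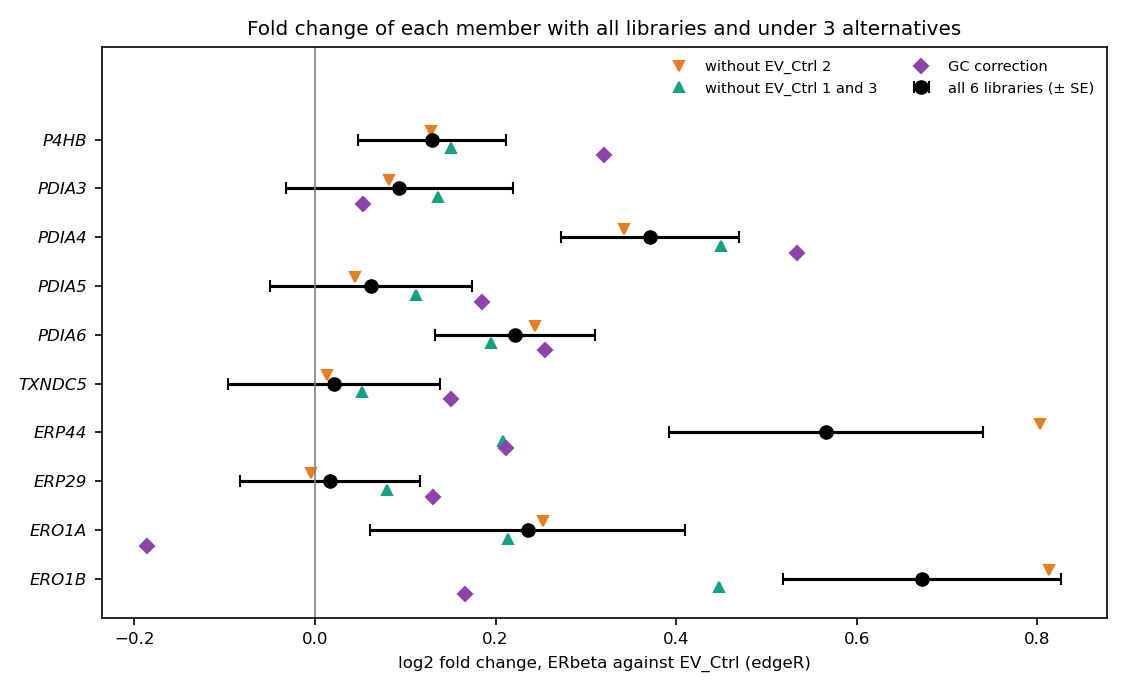
Log2 fold change of ERbeta against EV_Ctrl for each gene from edgeR, with black points and bars for all 6 libraries (± SE) and coloured markers for 3 alternatives. PDIA4 stays between 0.34 and 0.53 in these fits, ERP44 and ERO1B range from 0.17 to 0.81, and ERO1A turns to -0.19 with GC correction.

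Setting the oxidases against each other within a library removes the library total. ERO1B gave 47.6%, 52.1% and 48.5% of the ERO1A and ERO1B reads in ERbeta 1, 2 and 3. In EV_Ctrl 1, 2 and 3 it gave 42.6%, 45.2% and 37.4%. All 3 ERbeta shares were above all 3 control shares. The exact binomial 95% interval was 45.7% to 49.6% in ERbeta 1 and 43.5% to 46.8% in EV_Ctrl 2, and these intervals of the nearest libraries overlap. That of ERbeta 3, 46.45% to 50.45%, overlaps EV_Ctrl 2 as well. That of ERbeta 1 also overlaps EV_Ctrl 1, at 39.1% to 46.2%. Per kilobase the ratio of ERO1B to ERO1A was 1.28, 1.53 and 1.32 in ERbeta and 1.05, 1.16 and 0.841 in EV_Ctrl. The GC contents of the longest transcripts are 37.0% for ERO1B and 38.7% for ERO1A. The part of GC content in this ratio was not tested beyond the corrected fit. The log2 fold change of ERO1B exceeded that of ERO1A by 0.44 with all libraries and by 0.35 with GC correction. Over the fits tried this difference ran from 0.23 (without EV_Ctrl 1 and 3) to 0.56 (without EV_Ctrl 2). Since the pair was chosen with results known, no test is given.

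**Figure D3:**
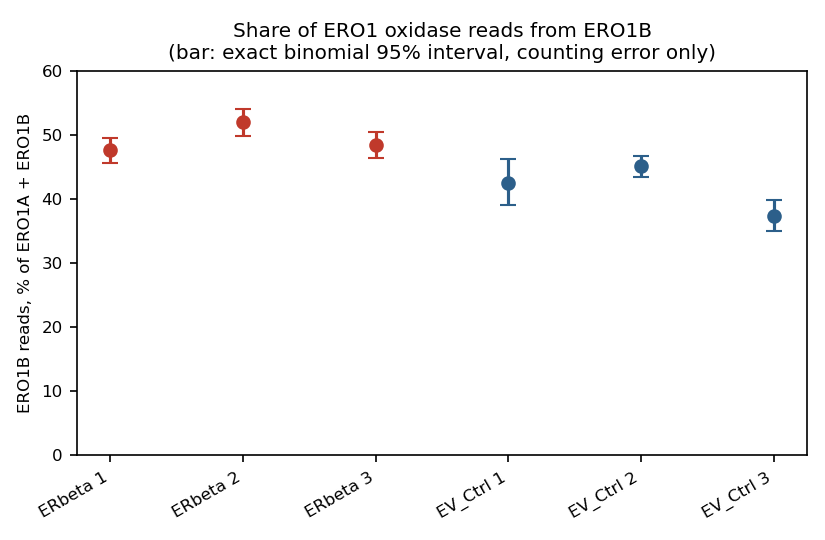
Reads of ERO1B as a percentage of ERO1A and ERO1B reads in each library, with exact binomial 95% intervals that cover counting error only. The ERbeta shares, 47.6% to 52.1%, lie above the EV_Ctrl shares, 37.4% to 45.2%.

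The spread within EV_Ctrl differed between genes. EV_Ctrl 2 exceeded the mean of EV_Ctrl 1 and 3 by 0.59 (log2 CPM) for ERP44 and by 0.37 for ERO1B. For the other 8 genes the same difference lay between -0.11 (PDIA4) and 0.06 (ERO1A). The GC contents of ERP44, ERO1B and ERO1A are 38.9%, 37.0% and 38.7%. Against EV_Ctrl 2 alone, the mean of the ERbeta libraries was higher by 0.44 for PDIA4, 0.44 for ERO1B, 0.20 for ERP44, 0.19 for PDIA6, 0.19 for ERO1A and 0.15 for P4HB on the log2 CPM scale. The part of GC content in these differences was not tested beyond the corrected fit.

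**Figure D4:**
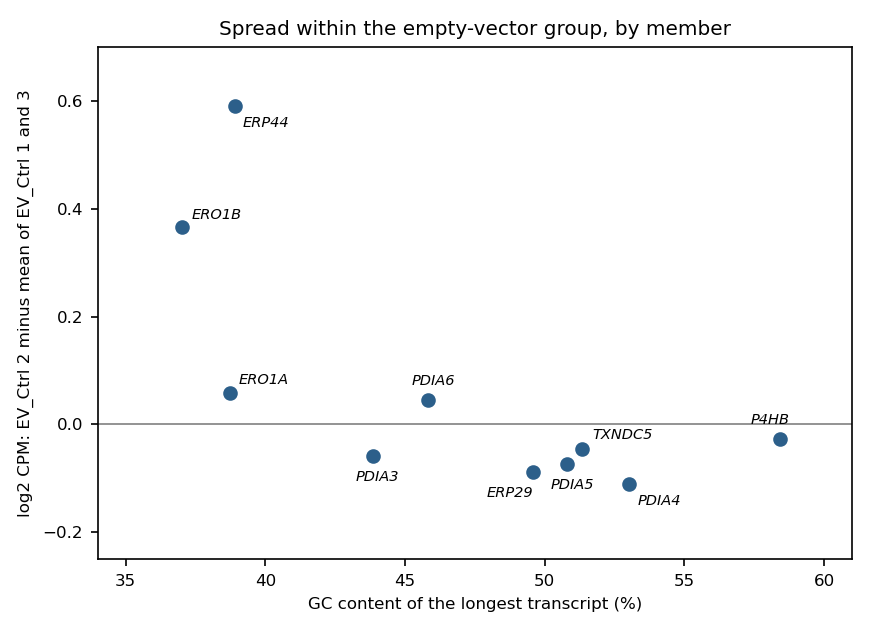
For each gene, the log2 CPM of EV_Ctrl 2 minus the mean of EV_Ctrl 1 and 3 against the GC content of its longest GENCODE 29 transcript. ERP44 and ERO1B stand out at 0.59 and 0.37, while the other 8 genes lie between -0.11 and 0.06.

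The authors' deposited table gives adjusted p-values under 0.05 for 3 of these genes in the same contrast. In it PDIA4 has a log2 fold change of 0.34 (adjusted p 0.0123), ERP44 of 0.48 (adjusted p 0.0237) and ERO1B of 0.57 (adjusted p 0.00802). The other 7 genes have adjusted p-values from 0.0714 (PDIA6) to 0.973 (TXNDC5) in the authors' deposited table, which calls 3.35% of the genes with an adjusted p higher. That table gives a mean count above 0 for 8079 of the 33813 genes that have 0 reads in all 6 libraries, so it does not rest on the counts analysed here alone. Whether these counts entered it, and what else did, is not given in its header.

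Other thioredoxin-fold proteins of the ER were measured beside these genes, with CRELD2 listed among them although it lacks that fold. Of 17 listed, 13 were tested and 0 passed over all genes in either direction. The median log2 fold change was 0.30, with 8 above 0 and 5 below, where 48.3% of tested genes were above 0. At an unadjusted p under 0.05 in edgeR 7 of the 13 were higher, against 9.54% of tested genes. With GC correction the median was 0.12 and 10 of the 13 were above 0. Over all genes in that fit the median was 0.05 and 59.7% were above 0. AGR2, AGR3, ERP27 and PDILT had at most 1 read in any library. SELENOF, a selenoprotein that works with the glucosyltransferase UGGT, was at 148 to 157 CPM in ERbeta and 112 to 127 CPM in EV_Ctrl, a log2 fold change of 0.33 ± 0.10 that was -0.16 with GC correction. CRELD2, a stress-induced isomerase-like protein, was at 50.9 to 70.4 CPM in ERbeta and 41.5 to 47.0 CPM in EV_Ctrl, at 0.47 ± 0.14, and 0.62 with GC correction. TMX3, a membrane-bound PDI, was at 0.80 ± 0.26, and EV_Ctrl 2 at 123 CPM lay close to the ERbeta range of 132 to 159 CPM, with 59.7 and 68.0 CPM in EV_Ctrl 1 and 3. TMX3 was at 0.31 with GC correction, 1.20 without EV_Ctrl 2 and 0.26 without EV_Ctrl 1 and 3. DNAJC10, the ER reductase ERdj5, was at 0.80 ± 0.32, and here EV_Ctrl 2 at 202 CPM lay within the ERbeta range of 201 to 256 CPM. It was at 0.39 with GC correction, 1.34 without EV_Ctrl 2 and 0.13 without EV_Ctrl 1 and 3. TXNDC12, known as ERp18, was at 0.04 ± 0.11. Without EV_Ctrl 2, 4 of the 13 passed in edgeR, all higher, where 13.5% of all genes were called higher.

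Genes that oxidise PDIs by other routes were listed with further redox proteins of the ER. Of 14 listed, 12 were tested, 0 passed, 4 had positive and 8 negative log2 fold changes, and the median was -0.03. With GC correction the median was 0.08 and 9 of the 12 were positive. In that fit 59.7% of all genes were positive and their median was 0.05. PRDX4, the peroxiredoxin that uses the peroxide made by ERO1 to oxidise PDIs, was at 164 to 193 CPM in ERbeta and 150 to 182 CPM in EV_Ctrl, a log2 fold change of 0.04 ± 0.12 (0.17 with GC correction and -0.04 without EV_Ctrl 1 and 3). GPX8, a membrane-bound ER peroxidase, was at 37.3 to 52.8 CPM in ERbeta and 26.6 to 48.1 CPM in EV_Ctrl, at 0.37 ± 0.25. Without EV_Ctrl 2, GPX8 was at 0.72 (adjusted p 0.0109 in edgeR) and was the 1 gene of the 12 passing there. In that fit 13.5% of all genes were called higher. GPX8 was at 0.14 with GC correction and -0.11 without EV_Ctrl 1 and 3. The smallest p-values were those of SELENOS at 0.18 ± 0.11, VKORC1L1 at -0.21 ± 0.13 and SELENOK at 0.19 ± 0.12, and none passed.

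Of 7 listed collagen hydroxylases and lipid transfer partners of P4HB, 6 were tested and 0 passed, with 2 positive and 4 negative values and a median of -0.08. With GC correction the median was 0.08 and 5 were positive, where 59.7% of all genes were positive with a median of 0.05. P4HA1, the main catalytic subunit bound by P4HB, was at 57.2 to 73.6 CPM in ERbeta and 36.6 to 54.4 CPM in EV_Ctrl, with a log2 fold change of 0.48 ± 0.17 and 0.23 with GC correction. PLOD2, a lysyl hydroxylase, was at 0.79 ± 0.31, but EV_Ctrl 2 at 85.92 CPM lay within the ERbeta range of 85.85 to 114 CPM. PLOD2 was at 0.23 with GC correction and 0.16 without EV_Ctrl 1 and 3. Without EV_Ctrl 2, PLOD2 was at 1.28 (adjusted p 0.000223) and P4HA1 at 0.63 (adjusted p 0.0194) in edgeR. These 2 of the 6 genes passed there, where 13.5% of all genes were called higher. PLOD1 was at -0.18 ± 0.11 and at 0.01 with GC correction. Among 12 genes raised by hypoxia, of which P4HA1 is also 1, 10 were tested and 0 passed. They had 8 positive values, where 48.3% of tested genes were positive, and a median of 0.20 (0.13 with GC correction). Without EV_Ctrl 2, P4HA1 was the 1 of these 10 that passed, where 13.5% of all genes were called higher. VEGFA was at 0.26 ± 0.11 (0.43 with GC correction) and LOX at 0.25 ± 0.13, against 0.24 ± 0.17 for ERO1A. LOX was at -0.07 with GC correction.

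In the thioredoxin and glutaredoxin system of the cytosol and mitochondria, 18 of 18 listed genes were tested and 0 passed. Of these, 10 were positive and 8 negative, and their median log2 fold change was 0.01. With GC correction 14 were positive and the median was 0.07. In that fit 59.7% of all genes were positive and their median was 0.05. TXNL1 was at 0.30 ± 0.10, TXNDC9 at 0.79 ± 0.28 and PRDX3, the mitochondrial peroxiredoxin, at 0.27 ± 0.16. TXNL1 turned to -0.14 with GC correction. TXNDC9 was at 41.1 CPM in EV_Ctrl 2, near the 44.9 to 52.5 CPM of ERbeta, and at 20.6 and 20.03 CPM in EV_Ctrl 1 and 3. TXNDC9 was at 0.48 with GC correction and 0.22 without EV_Ctrl 1 and 3, and PRDX3 was at 0.19 and -0.01. Without EV_Ctrl 2 TXNDC9 was at 1.23 (adjusted p 0.000151) and PRDX3 at 0.45 (adjusted p 0.044) in edgeR. These 2 of the 18 genes passed there, where 13.5% of all genes were called higher.

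**Figure D5:**
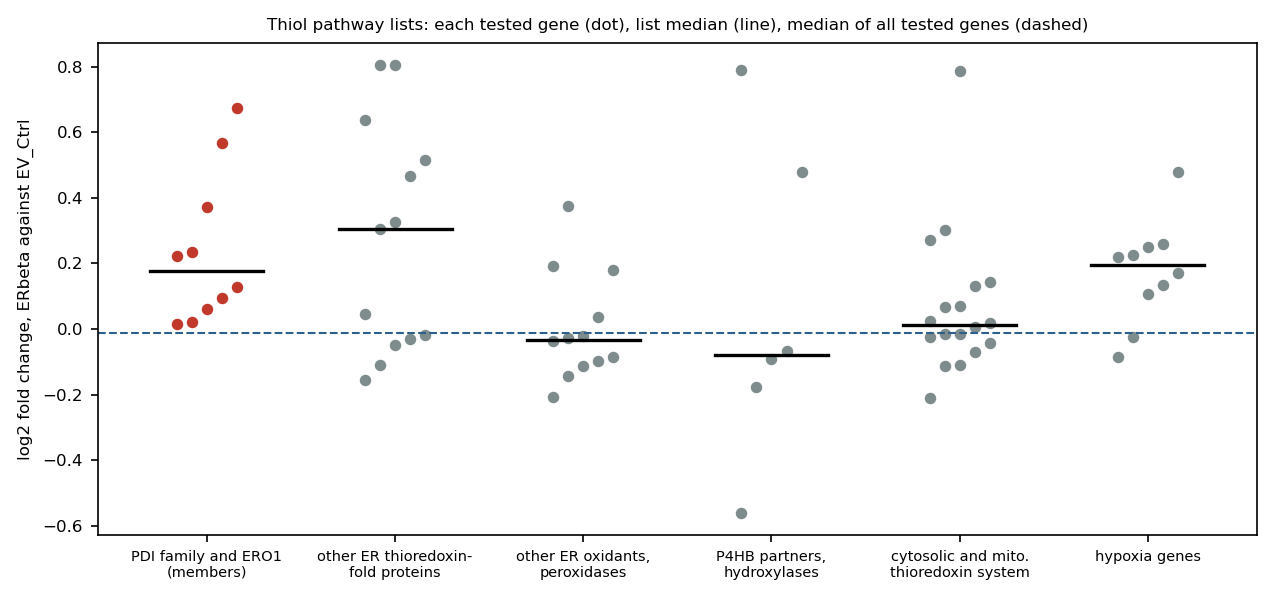
Log2 fold change (edgeR, all 6 libraries) of each tested gene by list, with the list median as a line and the median of all tested genes, -0.01, dashed. From left to right the lists are the 10 genes, other thioredoxin-fold proteins of the ER with CRELD2, and other oxidants. Then come the list of P4HB partners and other collagen hydroxylases, the cytosolic and mitochondrial system, and hypoxia genes. In this order the medians are 0.18, 0.30, -0.03, -0.08, 0.01 and 0.20. With GC correction, not drawn, they are 0.18, 0.12, 0.08, 0.08, 0.07 and 0.13, beside 0.05 over all genes in that fit.

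The chaperone gene HSPA5 (BiP), the standard reference for ER stress, gives the scale of these values. It was at 870 to 888 CPM in ERbeta and 501 to 536 CPM in EV_Ctrl, a log2 fold change of 0.75 ± 0.08 (adjusted p 0.13 in edgeR). It passed in edgeR without EV_Ctrl 2 (0.78, adjusted p 0.000665) and with GC correction (0.79, adjusted p 0.0335), and in DESeq2's Wald test (adjusted p 1.96e-09). With GC correction PDIA4 was at 0.53 and ERO1B at 0.17, neither passing. No test of the difference between these genes was made.

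Genes whose log2 CPM followed a member most closely over the 6 libraries were listed by Pearson's r among 13927 genes, as a description with 6 points that share library and depth. For P4HB they were ZNG1F (r = 0.998), ING1 (0.993) and SPATA5L1 (0.986), and for PDIA4 they were C1orf52 (0.990), ZNF367 (0.984) and ACTR3B (0.973). For ERO1A they were STX12 (0.993), TMEM39A (0.991) and UBN2 (0.991), and for ERO1B they were FBXO38, CTBS and IMPA1 (0.999, 0.998 and 0.997). An r above 0.95 was reached by 22 genes each for P4HB and PDIA4, by 113 for ERO1A and by 565 for ERO1B.

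The 10 genes lie on 10 chromosomes of GRCh38 (GENCODE 29) and all are protein-coding. P4HB spans 81843159 to 81860694 on chromosome 17, PDIA4 149003062 to 149028641 on chromosome 7 and PDIA6 10783391 to 10837977 on chromosome 2, all on the minus strand. ERP44 spans 99979179 to 100099040 on chromosome 9, ERO1A 52639916 to 52695900 on chromosome 14 and ERO1B 236215555 to 236281985 on chromosome 1, also on the minus strand. PDIA3 (chromosome 15), PDIA5 (chromosome 3) and ERP29 (chromosome 12) are on the plus strand and TXNDC5 (chromosome 6) on the minus strand. Counts are per gene, so splice forms were not told apart.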

How the data were processed

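Stranded poly(A) RNA libraries (TruSeq Stranded mRNA, per the labels' protocols) were compared, 3 ERbeta and 3 EV_Ctrl, grouped by their labels. The submitters' processing notes name hg38, TopHat2, featureCounts and DESeq2, with no version; annotation and strand setting were not given in the sources used here. The deposited table holds the authors' raw read counts per gene. A second table deposited by the authors holds, per the file headers, a mean signal (mean count after size factors), a log2 fold change, its error and Wald statistic (scores) and p-values; it entered no test.

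Genes were filtered with filterByExpr (minimum count 10, total 15), scaled by TMM and tested with edgeR 4.0.16 (glmQLFit, glmQLFTest; R 4.3.3), group as the only term, with Benjamini-Hochberg adjustment over all 16243 genes and a threshold of 0.05. Standard errors come from the F statistic. The fit was tested on simulated data. Alternatives used DESeq2 1.42.0, limma 3.58.1, other scalings and filters, a replicate block, GC correction (loess, span 0.5, log2 CPM on the GC of the longest GENCODE 29 transcript, 16091 genes) and left-out libraries. Exon lengths are from GENCODE 29, which may differ from the authors' annotation. Depths ran from 6833442 to 27101644 counts; the members had 97 to 18082 reads per library.

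The genes, lists, tests and alternatives were chosen with earlier results of these data known. The text names all 10 members, in each list the 3 smallest p-values plus PRDX4, GPX8, DNAJC10, TXNDC12, CRELD2, P4HA1 and HSPA5, and for P4HB, PDIA4, ERO1A and ERO1B the 3 best correlated genes whose mean log2 CPM was 1 or more. Protein features planned for description were not analysed here.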

Additional observations from a re-analysis of the deposited data

How the results depend on the processing

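Over all tested genes the call count was 0 with all libraries (2018 at an unadjusted p under 0.05 in edgeR; 71 called by DESeq2's Wald test and 1 by limma-voom). It was 51 without a filter on low counts, 22 with GC correction and 1846 with GC correction and EV_Ctrl 2 left out. Leaving out 1 library gave 0 to 2324, the latter without EV_Ctrl 2. Of the 10 genes, 0 were called with all libraries, 1 (PDIA4) with GC correction and EV_Ctrl 2 left out, and 0 to 2 when 1 library was left out, the 2 being ERP44 and ERO1B without EV_Ctrl 2; the other alternatives also gave 0.

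In 17 alternatives 5 genes (P4HB, PDIA4, PDIA6, ERP44 and ERO1B) kept a positive log2 fold change. ERO1A turned to -0.19 with GC correction, -0.17 with GC correction and the replicate block, and -0.32 with GC correction and EV_Ctrl 2 left out. With library size only, ERP29 was at -0.080, PDIA3 at -0.0018, PDIA5 at -0.031 and TXNDC5 at -0.071. With 1 library left out, ERP29 ran from -0.017 (without ERbeta 2) to 0.061 and was -0.0046 without EV_Ctrl 2. PDIA3 ran from -0.015 (without ERbeta 2) to 0.20, and TXNDC5 from -0.0023 (without EV_Ctrl 3; -0.0021 without ERbeta 3) to 0.058. The cause of these turns was not tested.

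Same-numbered libraries of the groups did not consistently deviate together (correlations 0.23, -0.14 and -0.15). With 3 libraries per group these values cannot decide whether the numbers pair them. The replicate block gave 0 calls over all genes and 0 of the 10 genes. A fit without EV_Ctrl 1 and 3 assumes that the lone control varies like the ERbeta libraries. PDIA5 and TXNDC5 rest on the fewest reads, 97 to 348 per library.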
